A study of Mus musculus with 12 samples.

Results

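Cumulus cells cultured with follicle-stimulating hormone (FSH) and epidermal growth factor (EGF) were compared with cumulus cells cultured in control medium, gene by gene. The comparison used 8 of the 12 microarrays in the study, 4 labelled FSH/EGF and 4 labelled 293H control, chosen by their titles, and all 19938 genes that the array annotation named with a single symbol. Each gene was read from 1 probe set, the one with the highest mean signal over the 12 arrays. Both groups were cumulus-oocyte complexes of 129SV female mice aged 21 to 26 days, taken 44 h after 5 IU of equine chorionic gonadotropin. Culture lasted 8 h in both groups, with 20 complexes per drop of 50 microlitres and 11 mM glucose, and both groups contained control medium of 293H cells (a human embryonic kidney line) at 0.125% by volume. The culture medium of both also held cysteamine at 100 micromolar, and cilostamide, a phosphodiesterase inhibitor, was named at 1 micromolar for the medium in which ovaries were rinsed. The treated group also received EGF (10 ng/ml) and FSH (50 mIU/ml), always together, so that their effects cannot be told apart. The oocyte was present during culture and was stripped off by pipetting before RNA extraction. Each condition had 8 biological replicates whose RNA was pooled in pairs into 4 arrays, and the p-values therefore describe the spread between pools, not between animals.

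Cumulus cells are granulosa-lineage cells that wrap the oocyte, feed it through gap junctions and lay down a hyaluronan-rich matrix before ovulation. FSH acts through a cyclic AMP-coupled receptor, and EGF-like factors act through a tyrosine kinase receptor and the ERK cascade. In the follicle they relay the ovulatory surge to the cumulus, and the matrix genes they raise are well described. The results below describe the other functions that the arrays cover: peptide hormones and their receptors, the route of secreted proteins, sugar chains, lipid and metal handling, ion channels, transcription, RNA handling and the cytoskeleton.

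All values are log2 signals, so a difference of 1 is a 2-fold change. Differences are FSH/EGF minus control with their standard error (SE, 4 and 4 arrays), tested with limma and called when the adjusted p was below 0.05. With FSH/EGF, 7334 genes passed: 4357 rose (21.9% of all genes) and 2977 fell (14.9%), a split of 59.4% higher. The split was 72.5% higher (4826 and 1832 genes) when all array medians were set equal, and 54.6% higher (3469 and 2884 genes) after a renewed quantile normalization. Rises of at least 2-fold were found in 1024 genes (5.14%) and falls in 445 (2.23%). At 8-fold or more there were 63 rises and 21 falls. The 4 arrays of one group lay wholly apart from those of the other in 8362 genes (41.9%). Between a control and an FSH/EGF array the correlation was 0.942 to 0.962, against 0.971 to 0.992 within control and 0.991 to 0.995 within FSH/EGF.

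Calls depended on how bright a probe set was. In the dimmest of 10 equal classes of mean signal 1.30% of genes rose and 3.86% fell, and in the brightest class 43.8% rose and 18.3% fell. Over the brighter 60% of genes 33.7% rose and 17.7% fell, with a median difference of 0.08, against -0.07 over all genes and -0.11 over the dimmer genes. Most genes in the functional lists described here are bright (921 of 1103), so their counts are read against the shares for brighter genes. The bright part is smaller in lists such as chemokines (12 of 29), retinoid genes (16 of 31) and monocarboxylate carriers (22 of 35). For such lists the shares over all genes are given too. Signal over background was not measured, and a difference that starts from a very dim probe set understates the change.

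**Figure D1:**
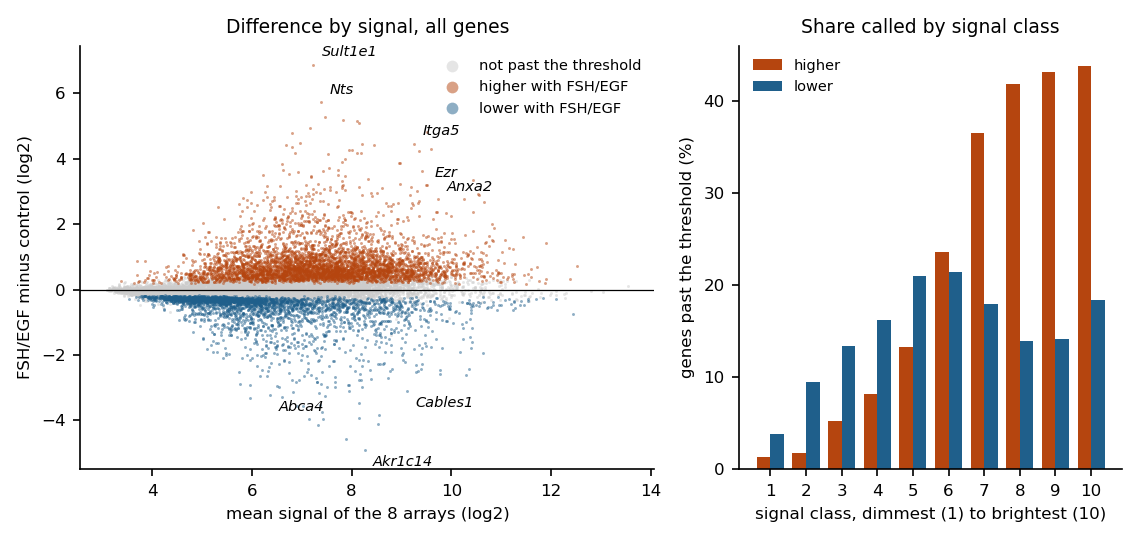
Left, the FSH/EGF minus control difference (log2) of each of 19938 genes against its mean signal on the 8 arrays, with genes past the adjusted p of 0.05 coloured by direction. Right, the share of genes called higher or lower in each of 10 signal classes: rises went from 1.30% in the dimmest class to 43.8% in the brightest, while falls peaked at 21.4% in the sixth class.

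Marker lists were read for the labelled cell type and for others. The means of the cumulus and granulosa markers were 9.65 to 9.84 on control arrays and 8.42 to 8.66 on FSH/EGF arrays. Of 11 measured, 8 fell and 0 rose (median -0.76), among them the FSH receptor Fshr at -3.14; fewer cells of a type and less RNA per cell cannot be told apart in such bulk samples. Oocyte RNA was unequal between arrays: the mean of 22 oocyte markers was 5.88 on control array 4 and 4.98 to 5.09 on the other controls, and 4.87 to 5.16 with FSH/EGF. Of these 22, 0 rose and 1 fell, and 3 fell without control array 2. Bmp15, an oocyte growth factor, differed by -0.60 (limma adjusted p = 0.239) and Padi6, an oocyte enzyme, by -0.34 (adjusted p = 0.633). Of 10 leukocyte markers 1 rose and 0 fell (1 fell without control array 1; median -0.18, Cd68 0.50), with list means of 4.88 to 5.06 on control and 4.83 to 4.91 on FSH/EGF arrays. Of 9 theca and stroma markers 3 fell and 0 rose (median -0.28, Acta2 -2.34), and their means were 6.15 to 6.25 and 5.68 to 5.77. Both measured red blood cell markers fell (median -0.31, Slc4a1 -0.31), with means of 5.38 to 5.67 and 5.20 to 5.23. Without FSH/EGF array 1 neither passed, and 1 of the 2 passed without any other single array except control array 4.

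Markers of endothelium and surface epithelium were mixed. Of those given here, Pecam1, Kdr, Tek, Krt18, Krt7 and Krt19 were named after their values were seen. Cdh5, the cadherin of vascular endothelium, rose by 3.18 ± 0.09 while the endothelial markers Pecam1 (-0.01) and Kdr (-0.03) did not pass. Tek, an endothelial receptor, rose by 0.29, so that of the 10 endothelial markers 2 rose and 0 fell. The endothelial list had a median of -0.03, which turned positive (0.05 and 0.04) under renewed quantile normalization and equal medians, and its array means were 4.97 to 5.14 on control and 5.30 to 5.36 on FSH/EGF arrays. Krt8, a keratin of simple epithelia, rose by 3.02 ± 0.20 and its partner Krt18 by 2.72, while Krt7 (-0.18) and Krt19 (-0.10) did not pass. Of the 8 surface epithelium markers 2 rose and 1 fell (median -0.18), with means of 5.54 to 5.95 and 6.25 to 6.32; the single fall was lost without control array 3, FSH/EGF array 1, FSH/EGF array 3 or FSH/EGF array 4, and 2 fell without control array 4.

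The 24 largest rises ran from 4.01 to 6.87, and Sult1e1, an estrogen sulfotransferase, was first. Among them were 3 peptide precursors, several receptors, an integrin and enzymes of steroid, aldehyde and nucleotide metabolism. Nts encodes neurotensin and Nmu neuromedin U. For these and for Procr, all of which rose at least 16-fold, the RefSeq sequence of the 250 bases before the start of the gene (build GRCm38.p6) is shown, because these were the 3 of 18 available windows among the 24 rises that held both a TGACG, the short form of the cyclic AMP response element, and a TGANTCA, the AP-1 motif. Both were searched on both strands, and the 2 motifs share no base in these windows. Capitals mark the matches, CGTCA being TGACG read on the other strand, and each sequence runs 5′ to 3′ along the gene.

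Nts, chr10:102490419-102490668, minus strand: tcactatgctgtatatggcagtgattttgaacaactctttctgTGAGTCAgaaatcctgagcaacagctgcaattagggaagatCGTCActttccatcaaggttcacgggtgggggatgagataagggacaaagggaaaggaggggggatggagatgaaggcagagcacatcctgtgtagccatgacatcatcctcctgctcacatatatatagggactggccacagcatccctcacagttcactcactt
Nmu, chr5:76363778-76364027, minus strand: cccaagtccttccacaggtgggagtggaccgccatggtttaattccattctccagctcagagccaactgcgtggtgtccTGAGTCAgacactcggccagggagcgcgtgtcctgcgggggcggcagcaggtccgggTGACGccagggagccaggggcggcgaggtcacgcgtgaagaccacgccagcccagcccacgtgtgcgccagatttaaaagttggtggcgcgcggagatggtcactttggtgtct
Procr, chr2:155750967-155751216, plus strand: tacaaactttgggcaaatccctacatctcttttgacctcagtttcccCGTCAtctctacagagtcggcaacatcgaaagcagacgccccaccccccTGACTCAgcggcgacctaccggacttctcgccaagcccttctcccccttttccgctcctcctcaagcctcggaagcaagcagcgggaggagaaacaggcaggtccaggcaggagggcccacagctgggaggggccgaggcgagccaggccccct

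In the Nts window the AP-1 match began 207 bases and the short form 166 bases before the start. The matches in Nmu began at 171 and 114 bases, and in Procr the short form came first, at 203 bases, with the AP-1 match at 154. Over windows of 300 bases (250 before and 50 after the start), AP-1 was in 12.1% of the 157 windows matched among the 200 largest rises, in 6.33% of the 158 matched among the 200 largest falls, and in 8.08% of 15614 over all genes. The short form TGACG was in 28.7%, 24.7% and 28.0%, and the full response element TGACGTCA in 0 of 157, 1.90% and 2.72%. The EGR motif GCGNGGGCG was in 13.4% of rises and 14.6% of falls against 9.32% overall. For the C/EBP motif TTGCNNAA the shares were 12.7%, 6.96% and 11.3%, for the E-box CACGTG 12.7%, 9.49% and 9.50%, and for the NR5A motif CAAGGTCA 0.637%, 0.633% and 1.41%. The TATA box TATAAA was in 15.3%, 10.8% and 13.6%, and the CCAAT box in 39.5%, 41.1% and 41.7%. TGACG lies within TGACGTCA, so that these counts overlap, and the shares are descriptions without a test.

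Of the peptide precursors, Nts and Nmu started in the dimmest 25% of genes. Nts stood at 4.60, 4.43, 4.52 and 4.54 on the 4 control arrays and at 10.39, 10.38, 10.00 and 10.23 with FSH/EGF (5.73 ± 0.10). Nmu went from 4.53, 4.69, 4.64 and 4.92 to 9.52, 9.86, 9.58 and 9.60 (4.95 ± 0.09). Within each gene the 4 arrays of a group differed by less than 0.5, so the groups were far apart. Penk, the precursor of the enkephalin opioid peptides, read 5.34, 5.79, 5.56 and 6.77 on control and 10.09, 10.12, 10.06 and 10.32 on FSH/EGF arrays (4.28 ± 0.25, limma adjusted p = 6.45e-08). Its highest control value was on array 4, the array with most oocyte RNA, and still lay well below the treated arrays. Groups without overlap were a condition for naming Nts, Nmu and Penk.

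Receptors on the cell surface rose in the same range. Gfra1, the receptor that binds the growth factor GDNF, was flat among replicates at 5.999, 5.92, 6.02 and 5.995 on control and 10.44, 10.27, 10.51 and 10.54 on FSH/EGF arrays (4.46 ± 0.09). Gpr83, a G protein-coupled receptor, read 5.73, 6.47, 5.80 and 6.06 against 10.00, 10.28, 10.42 and 10.07 (4.18 ± 0.25). Procr, the receptor of the anticoagulant protein C, read 7.08, 7.39, 6.72 and 7.71 against 11.44, 11.45, 11.41 and 11.56 (4.24 ± 0.29). In each of these the lowest treated array was above the highest control array, as the rule for naming them required. Itga5, the fibronectin-binding integrin chain, was already visible in control at 7.30, 7.08, 6.73 and 6.999 and reached 11.38, 11.45, 11.44 and 11.67 (4.46 ± 0.12). Piezo2, an ion channel opened by mechanical force, went from 5.70, 6.08, 5.63 and 6.06 to 10.25, 9.71, 9.70 and 9.83 (4.01 ± 0.14).

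Enzymes and a trafficking protein were also among the 24. Sytl3, a Rab27-binding protein of vesicle exocytosis, read 4.31, 4.34, 4.51 and 4.54 on control and 9.39, 9.06, 9.01 and 9.33 on FSH/EGF arrays (4.77 ± 0.13). Enpp3, an enzyme of the outer cell surface that cleaves nucleotides, rose by 4.49 ± 0.09 from 4.75, 4.82, 4.67 and 4.68 to 9.17, 9.41, 9.30 and 8.99. Hmgcll1, a lyase of ketone body formation outside mitochondria, rose by 4.44 ± 0.08 from 4.43, 4.35, 4.53 and 4.56 to 8.92, 8.87, 8.87 and 8.95. These 3 genes were near the dim end of the array in control and in its brightest 25% with FSH/EGF. Rnf125, a ubiquitin ligase, rose by 4.14 ± 0.16 and the aldehyde dehydrogenase Aldh1a3, which makes retinoic acid, by 4.27 ± 0.09. Sult1e1, Akr1b8, Sfrp2, Flnc, Btc, Ptgs2, Timp1, Ereg, Ptx3, Ier3 and Sfrp4 complete the 24.

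**Figure D2:**
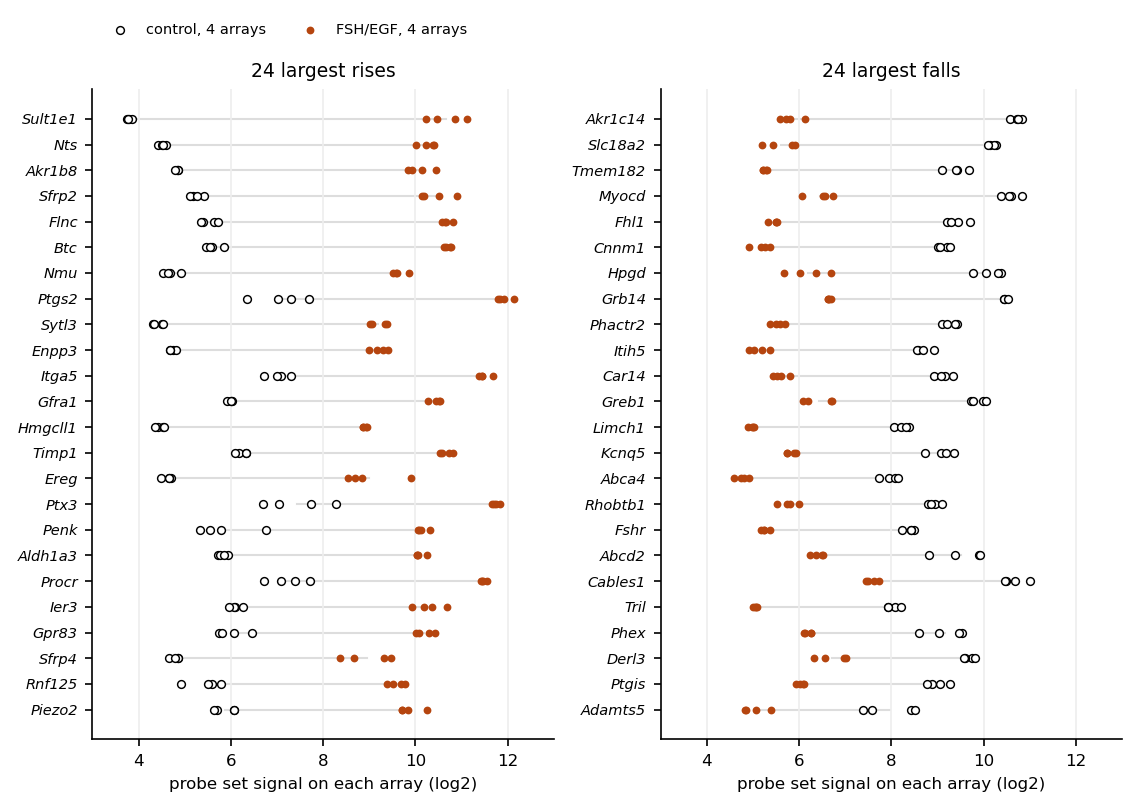
Probe set signal (log2) on each of the 4 control arrays (open points) and the 4 FSH/EGF arrays (filled points) for the 24 largest rises and the 24 largest falls, with a line joining the group means. In all 48 genes the 2 groups of points are apart, as the rule for naming them required.

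A count by position on the array, made after the values were seen, picked out genes that moved across its range. In 16 genes the control mean lay in the lowest 25% of all genes (below 4.88) and the FSH/EGF mean in the highest 25% (above 7.45). Besides 9 of the 24 largest rises these were Ttc9, Olr1 (a receptor for oxidized lipoprotein), Ifi202b, Galnt3 (which starts mucin-type sugar chains), Cd44, Slc7a11 (the cystine carrier) and Hcar2 (a hydroxycarboxylic acid receptor). Olr1 rose by 3.67, Galnt3 by 3.16, Slc7a11 by 2.99 and Hcar2 by 2.73. The GDF9 arrays of the same study, set beside these without a test, had means between 3.83 and 4.97 in the 16 genes. In the other direction 3 genes went from the highest to the lowest 25%: 8030451A03Rik (-3.31), the calpain-family gene Capn6 (-2.92) and Fbp1, the gluconeogenic fructose bisphosphatase (-2.88).

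The largest falls ran from -2.94 to -4.90 and were spread over carriers, channels, regulators of contractile cells and enzymes. Akr1c14, a hydroxysteroid dehydrogenase, led them (-4.90), and Phactr2, a regulator of protein phosphatase and actin, read 9.09, 9.43, 9.39 and 9.21 on control and 5.38, 5.59, 5.70 and 5.50 on FSH/EGF arrays (-3.74 ± 0.12). Limch1, an activator of nonmuscle myosin, fell from 8.06, 8.39, 8.20 and 8.32 to 4.89, 4.97, 5.01 and 5.03 (-3.27 ± 0.10). In both the treated arrays were close together and far from control, and groups without overlap were a condition for naming them. Rhobtb1, a protein with BTB domains, fell by 3.16 ± 0.14, and Cables1, a cell cycle regulator that links kinases, fell by 3.09 ± 0.12 from the bright values of 11.00, 10.50, 10.69 and 10.47 to 7.73, 7.45, 7.63 and 7.50.

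Carriers and channels were a second group among the falls. Kcnq5, a voltage-gated potassium channel, read 8.73, 9.37, 9.08 and 9.19 on control and 5.74, 5.94, 5.75 and 5.90 on FSH/EGF arrays (-3.26 ± 0.16). Abca4, an ATP-driven transporter best known for moving retinoids in the eye, went from 7.74, 7.95, 8.08 and 8.15 to 4.91, 4.73, 4.80 and 4.60 (-3.22 ± 0.11). Abcd2, which takes very long fatty acids into peroxisomes, read 8.82, 9.90, 9.37 and 9.92 against 6.37, 6.51, 6.23 and 6.49 (-3.10 ± 0.24). The control values of Abcd2 were spread over more than 1 log2 unit, with array 1 lowest. They did not reach the treated values, as the rule for naming the falls required. The monoamine transporter Slc18a2 fell by 4.58, the magnesium-handling gene Cnnm1 fell by 3.95 and the carbonic anhydrase Car14 also lay among the 24.

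Other large falls had varied roles. Greb1, known as an estrogen-induced gene, read 9.72, 9.98, 9.78 and 10.05 on control and 6.70, 6.19, 6.71 and 6.09 with FSH/EGF (-3.46 ± 0.19). Itih5, of the heavy chains that bind hyaluronan, read 8.57, 8.92, 8.56 and 8.69 against 4.91, 5.20, 5.02 and 5.38 (-3.56 ± 0.17). Ptgis, which makes prostacyclin, read 9.27, 8.88, 9.06 and 8.78 against 6.10, 6.08, 6.02 and 5.93 (-2.96 ± 0.10). All 3 were bright in control and read below 7 on every treated array. The endopeptidase Phex and Derl3, a protein of endoplasmic reticulum degradation, each fell by 2.97, the toll-like receptor partner Tril fell by 2.99 and the matrix protease Adamts5 fell by 2.94. Tmem182, Myocd, Fhl1, Hpgd, Grb14 and Fshr complete the list.

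Functional lists, gathered with earlier results of these data known, held 1103 measured genes. Of these 446 rose and 151 fell. In 29 of the 33 lists more members rose than fell, in 3 more fell, and the chemokine list was even. Over the brighter 60% of all genes rises also outnumbered falls (33.7% and 17.7%). A majority of rises is therefore not particular to these lists. The lists describe function and carry no test of their own. Where leaving out a single array moved a count by more than 1.5 times, the arrays are named, and very small counts of falls moved most.

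**Figure D3:**
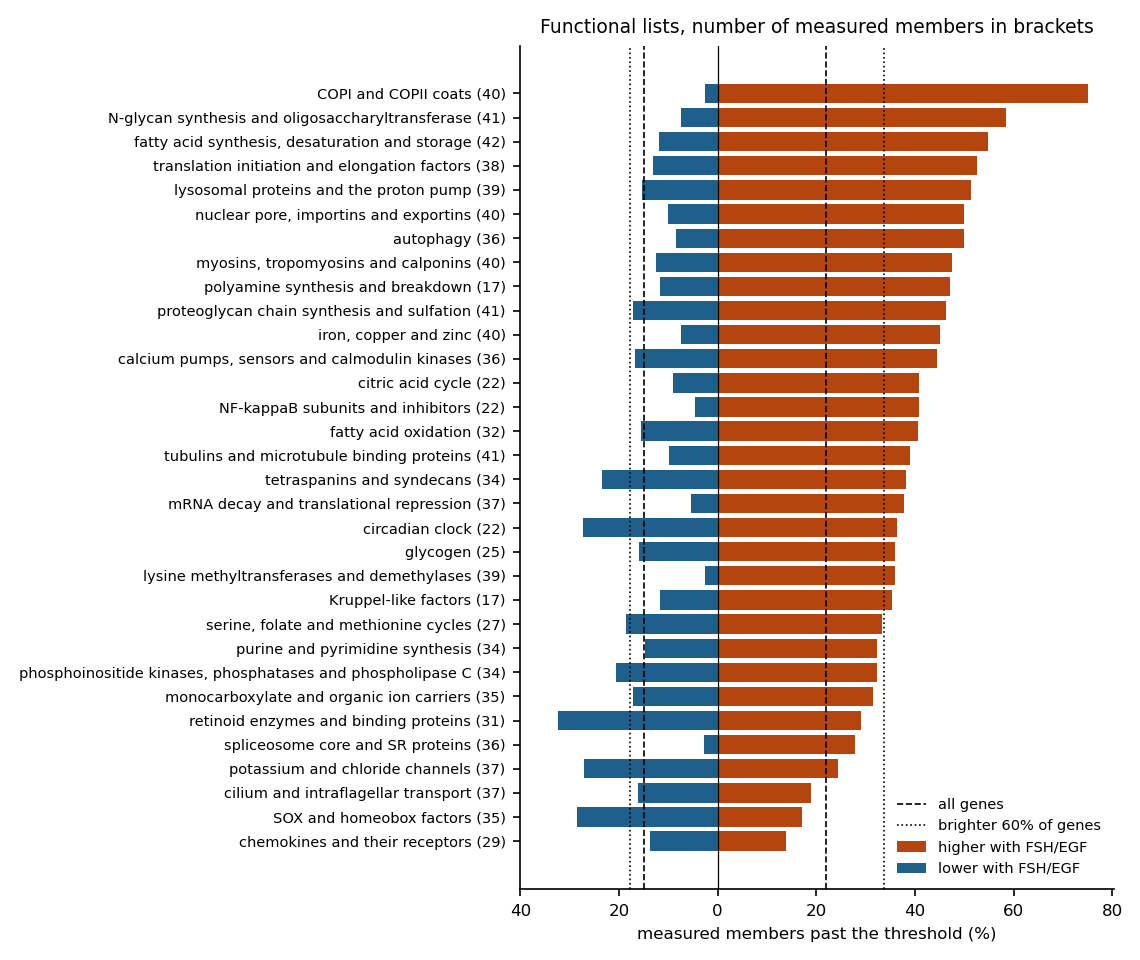
Share of measured members (%) past the threshold in each of 32 functional lists, higher to the right and lower to the left, with the share over all genes (dashed, 21.9% higher and 14.9% lower) and over the brighter 60% of genes (dotted, 33.7% and 17.7%). The coats of transport vesicles reach furthest to the right (75%), and retinoid, homeobox, clock and channel genes reach furthest to the left.

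Most measured coat genes of the route of secreted proteins from the endoplasmic reticulum to the Golgi rose in the deposited scaling. Of 40 measured genes of COPI and COPII coats, which wrap the vesicles of this route, 30 rose and 1 fell (75% higher, median 0.45). The single fall became 2 without control array 1 and 0 without control array 2, FSH/EGF array 2 or FSH/EGF array 4. After renewed quantile normalization 21 rose and 4 fell. Sec23b, a COPII coat protein, read 7.51, 8.02, 7.92 and 8.02 on control and 9.52, 9.47, 9.38 and 9.50 on FSH/EGF arrays (1.60 ± 0.10). Control array 1 was the lowest. All treated arrays were above all controls, and the groups did not overlap in 41.9% of all genes. Kdelr3, which returns escaped resident proteins, rose by 1.39 and the cargo receptor Tmed5 by 1.15. Most changes were small: of the 30, 3 reached 2-fold. Counted by part, after the values were seen, 10 of 13 COPII and Sar1 genes, 5 of 9 COPI subunits and 5 of 6 Tmed genes rose, and Copg2 (-0.43) was the 1 fall. After renewed quantile normalization the same parts had 7, 3 and 5 rises and 1 fall each.

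Sugar chains are added to proteins along the same route. In N-glycan synthesis and oligosaccharyltransferase 24 of 41 genes rose and 3 fell (median 0.43; 1 fell without control array 2, control array 4, FSH/EGF array 3 or FSH/EGF array 4). Man1a, which trims mannose, rose by 2.04 ± 0.13, Mgat2, which starts a complex branch, by 1.70 ± 0.11, and Alg2, which builds the lipid-linked precursor, by 1.00. In proteoglycan chain synthesis and sulfation the members moved further and in both directions: 19 of 41 rose and 7 fell (median 0.15). The number that fell was 3 without FSH/EGF array 4, 4 without control array 3, control array 4, FSH/EGF array 1 or FSH/EGF array 3, and 3 with equal array medians. Chst15, which adds a further sulfate to chondroitin, read 5.77, 6.44, 5.84 and 6.60 on control and 9.32, 9.51, 9.61 and 9.43 on FSH/EGF arrays (3.31 ± 0.18). Chsy3, a chondroitin polymerase, rose by 2.45 ± 0.14. Papss2, an enzyme that makes the sulfate donor, went the other way, from 8.18, 8.28, 8.56 and 8.28 to 5.77, 5.48, 5.75 and 5.27 (-2.75 ± 0.13), while Papss1, which catalyses the same reaction, rose by 0.37. Dse, which turns chondroitin into dermatan, rose by 2.41, and Chst11, a chondroitin sulfotransferase, by 1.83. Among 16 chondroitin and dermatan enzymes 8 rose and 2 fell, and these counts, Papss1, Dse and Chst11 were picked out after the values were seen. Among 14 heparan enzymes 6 rose and 2 fell.

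Lysosome and autophagy genes were raised unevenly. Of 39 genes of lysosomal proteins and the proton pump, 20 rose and 6 fell (median 0.33; 3 fell with equal array medians). The pump that acidifies the lysosome and the other members of the list differed in their counts. Of 15 pump subunits 13 rose and 0 fell (median 0.69). Of the 24 other genes 7 rose and 6 fell, with a median of 0.17 that was -0.01 after renewed quantile normalization. That division, Idua and Ids were picked out after the values were seen, and the difference between the pump and the rest was not tested. Ctsb, a cysteine protease, rose by 1.44 ± 0.10, Gla, a galactosidase, by 1.37 and the pump subunit Atp6v1a by 1.30, while the glycosaminoglycan-degrading Idua (-0.97) and Ids (-0.87) fell. In autophagy 18 of 36 rose and 3 fell (median 0.37). Vmp1, a membrane protein of autophagosome formation, rose by 1.66 and the protease Atg4a by 1.20, and Atg12, a ubiquitin-like conjugate, fell by 1.14.

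Translation initiation and elongation factors had 20 rises and 5 falls among 38 genes (median 0.33). There were 8 falls without control array 1 or after renewed quantile normalization, and 3 without control array 2 or with equal array medians. The 2 classes differed when all genes were grouped by symbol stem, a division made after the values were seen. Of 49 Eif genes 27 rose and 6 fell (median 0.35), while of 12 Eef genes 1 rose and 6 fell (median -0.22). The kinase Eef2k, which slows elongation by phosphorylating elongation factor 2, was the furthest mover, from 8.67, 8.64, 8.81 and 8.82 on control to 6.45, 6.50, 6.77 and 6.46 with FSH/EGF (-2.19 ± 0.09). No rise in this list reached 2-fold: Eif1a rose by 0.82 and the cap-binding Eif4e by 0.78. All 5 subunits of eIF2B, the exchange factor of initiation, rose (0.26 to 0.70), a group picked out after the values were seen, of which 3 passed after renewed quantile normalization.

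Of 42 genes of fatty acid synthesis, desaturation and storage 23 rose and 5 fell (median 0.36), and 11 rises were at least 2-fold. Scd1, which makes oleate from stearate, read 5.71, 5.99, 6.003 and 5.93 on control and 9.57, 9.56, 9.74 and 9.40 on FSH/EGF arrays (3.66 ± 0.17). Fads3, of the desaturase family, rose by 2.91 ± 0.09 and Acss2, which makes acetyl-CoA from acetate, by 2.60 ± 0.10. The groups were apart in all 3, which were picked for size, as they were in 41.9% of all genes. The lipid droplet protein Plin2 (2.35), the acyl-CoA synthetases Acsl4 (2.37) and Acsl5 (2.38) and the elongase Elovl4 (2.43), named after their values were seen, also rose, while Acacb, the mitochondrial acetyl-CoA carboxylase, fell by 1.23. In fatty acid oxidation 13 of 32 rose and 5 fell (median 0.22; 3 fell without control array 3 or with equal array medians). The shares of the oxidation list were 40.6% higher and 15.6% lower, against 33.7% and 17.7% of brighter genes. Cpt1a, which passes fatty acids into mitochondria, rose by 2.16 ± 0.10, the importer Slc27a4 by 1.20 and Cpt2 by 1.03.

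Of 22 citric acid cycle genes 9 rose and 2 fell (median 0.22; 4 fell without control array 1, with array weights or after renewed quantile normalization). All 22 were among the brighter 60% of genes. The 40.9% that rose compares with 33.7% of brighter genes and 43.8% of the brightest signal class. The 9.09% that fell compares with 17.7% and 18.3%. Idh1, the cytosolic isocitrate dehydrogenase that makes NADPH, read 9.23, 9.77, 9.51 and 9.66 on control and 11.58, 11.33, 11.26 and 11.18 with FSH/EGF (1.80 ± 0.13). Its mitochondrial relative Idh2 (-0.88) and Suclg2 (-0.85), a subunit of succinyl-CoA ligase, fell. In purine and pyrimidine synthesis 11 of 34 rose and 5 fell, with a median of 0.04 that was -0.07 after renewed quantile normalization; 3 fell without FSH/EGF array 4 and 11 after renewed quantile normalization. Prps2, which makes the ribose donor, fell by 1.62 ± 0.14, and the kinases Nme1 (1.40) and Cmpk1 (1.27) rose. The share that rose in this list, 32.4%, lies near that of brighter genes. In the serine, folate and methionine cycles 9 of 27 rose and 5 fell (median 0.15; 3 fell without control array 2, FSH/EGF array 2 or FSH/EGF array 4, or with equal array medians). The shares of this list, 33.3% higher and 18.5% lower, also lie near those of brighter genes (33.7% and 17.7%). Gldc and Gcsh, of the glycine cleavage system, rose by 1.34 and 1.18, and the folate receptor Folr1 fell by 1.26.

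Of 17 genes of polyamine synthesis and breakdown 8 rose and 2 fell (median 0.47), and both ends of the pathway were raised. Odc1, the first enzyme of synthesis, read 9.02, 9.10, 9.01 and 9.18 on control and 10.65, 10.54, 10.41 and 10.51 on FSH/EGF arrays (1.45 ± 0.12). Sat1, which acetylates polyamines for breakdown, read 5.77, 5.65, 5.76 and 6.28 against 8.31, 8.06, 7.77 and 8.41 (2.27 ± 0.21). The groups were apart in both genes, which were picked for size, as they were in 41.9% of all genes. Smox, which oxidizes spermine, rose by 1.78 ± 0.11.

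Of 25 glycogen genes 9 rose and 4 fell, with a median of -0.02 that was 0.06 with equal array medians; 7 fell with array weights. In the deposited scaling 36% of glycogen genes rose and 16% fell, near the shares of brighter genes (33.7% and 17.7%). The phosphoglucomutase-family genes Pgm2 and Pgm2l1 rose by 2.37 ± 0.12 and 1.39, and the phosphorylase Pygb fell by 1.04. Among iron, copper and zinc genes 18 of 40 rose and 3 fell (median 0.21), or 45% and 7.5% against 33.7% and 17.7% of brighter genes. The number that fell was 6 after renewed quantile normalization, with array weights or with only the 8 arrays compared. Tfrc, the transferrin receptor, rose by 1.62 ± 0.14 and the metalloreductase Steap1 by 1.78 ± 0.10, while Slc30a9, of a zinc carrier family, fell by 1.64 ± 0.11. Among monocarboxylate and organic ion carriers 11 of 35 rose and 6 fell, with a median of -0.01 that turned positive under both other scalings (0.02 and 0.06); 10 fell with array weights. Of these 35 carriers 22 were among the brighter genes. In the deposited scaling 31.4% rose, against 33.7% of brighter genes and 21.9% of all genes. Falls made up 17.1%, against 17.7% and 14.9%. The inositol carrier Slc5a3 rose by 1.81, the taurine carrier Slc6a6 by 1.50 and Slc22a23 by 1.49.

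Of 31 retinoid enzymes and binding proteins 9 rose and 10 fell (median -0.10), and 6 fell when dim rows were left out or array medians were set equal. Only 16 of the 31 were among the brighter genes. Rises made up 29.0%, against 21.9% of all genes and 33.7% of brighter genes. Falls made up 32.3%, against 14.9% and 17.7%. Aldh1a3, at 5.72, 5.93, 5.76 and 5.86 on control and 10.03, 10.05, 10.03 and 10.25 with FSH/EGF, and Rdh10, which makes retinaldehyde from retinol and rose by 2.18 ± 0.18, stood out. Rdh10 read 6.79, 7.09, 6.55 and 7.46 on control and 9.20, 9.30, 8.96 and 9.14 on FSH/EGF arrays. The dehydrogenase Aldh1a1, named after its value was seen, fell by 0.98. Crabp2, which carries retinoic acid to its receptor, fell by 1.72 ± 0.18, from 10.46, 10.24, 10.39 and 10.34 to 8.98, 8.78, 8.79 and 7.97, with FSH/EGF array 4 the lowest.

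**Figure D4:**
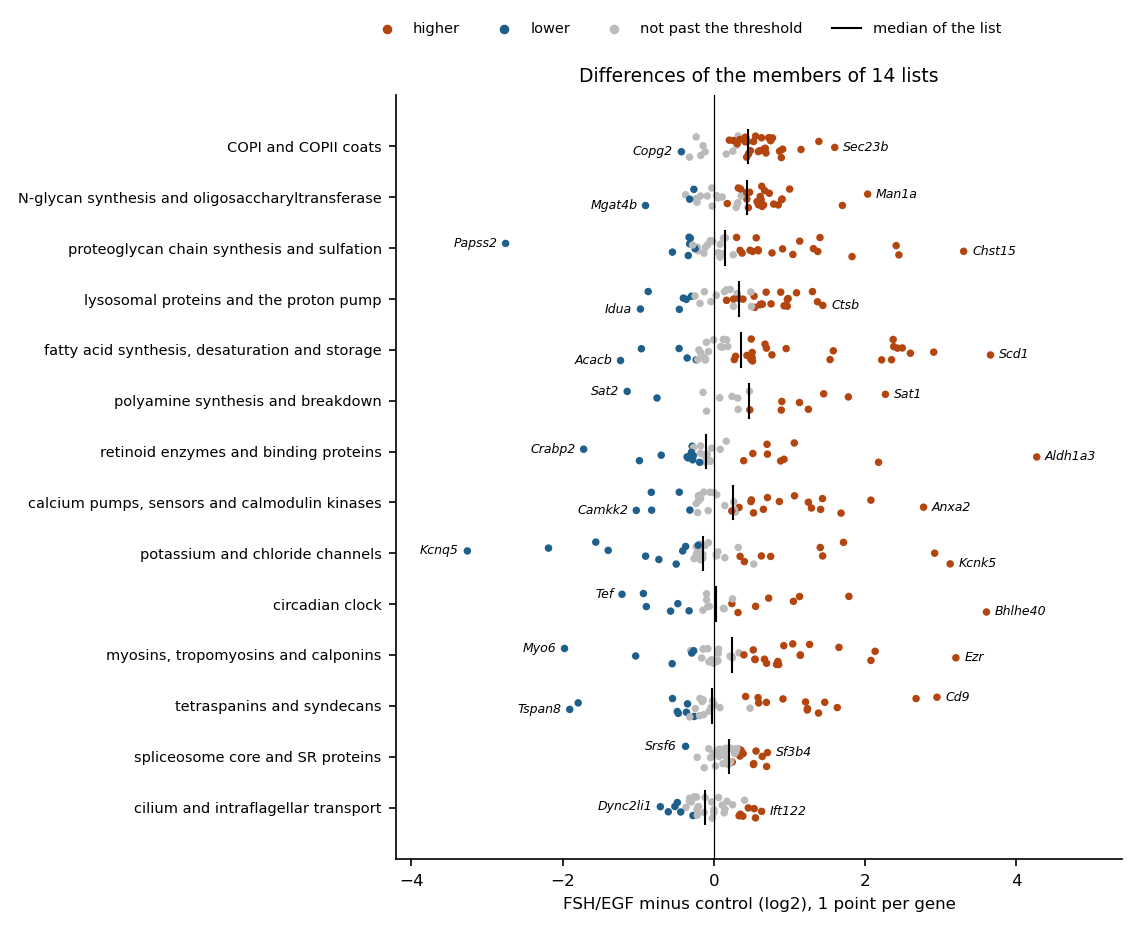
FSH/EGF minus control difference (log2) of every measured member of 14 lists, 1 point per gene, coloured by call, with a bar at the median and the highest and lowest member named. Members of the vesicle coat list sit in a narrow band around a median of 0.45, while retinoid, channel and proteoglycan genes spread from below -1.7 to above 3.

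Signal relay genes were mixed. Of 36 genes of calcium pumps, sensors and calmodulin kinases 16 rose and 6 fell (median 0.25). The shares were 44.4% and 16.7%, against 33.7% and 17.7% of brighter genes. The membrane-binding annexins Anxa2 and Anxa1 rose by 2.77 ± 0.08 and 2.08 ± 0.19, and S100a6, a small calcium-binding protein, by 1.68. Divided after the values were seen, 6 of 10 annexin and S100 genes rose and 1 fell (median 1.18), while of 9 calmodulin kinase genes 3 rose and 4 fell (median -0.20). Among phosphoinositide kinases, phosphatases and phospholipase C 11 of 34 rose and 7 fell, and the median of 0.01 was slightly below 0 after renewed quantile normalization. Of the 34, 24 were among the brighter genes. Rises made up 32.4%, against 33.7% of brighter genes and 21.9% of all genes. Falls made up 20.6%, against 17.7% and 14.9%. The calcium release channel Itpr3 rose by 2.14 ± 0.11 and the phospholipase Plcd1 by 1.23, and the kinase Pik3cg fell by 1.35 ± 0.21. Among NF-kappaB subunits and inhibitors 9 of 22 rose and 1 fell (median 0.27; 3 fell without FSH/EGF array 4). Here 40.9% rose and 4.55% fell, against 33.7% and 17.7% of brighter genes. The inhibitor-like Nfkbiz and Nfkbib rose by 1.12 and 0.99, and the adaptor Traf5 fell by 1.36.

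Potassium and chloride channels moved far in both directions. Of 37 measured, 9 rose and 10 fell (median -0.14), and 24 were among the brighter genes. Rises made up 24.3%, against 33.7% of brighter genes and 21.9% of all genes. Falls made up 27.0%, against 17.7% and 14.9%. Kcnk5, a background potassium channel, rose by 3.13 ± 0.29, and Clic1, a chloride channel-like protein, by 2.92 ± 0.09, against the fall of Kcnq5. Of 29 chemokines and their receptors 4 rose and 4 fell (median -0.11; 2 fell without FSH/EGF array 2 or FSH/EGF array 3 or with equal array medians, and 7 with array weights). Only 12 of the 29 were among the brighter genes. Rises and falls were 13.8% each, against 21.9% and 14.9% of all genes and 33.7% and 17.7% of brighter genes. Cxcr4, the receptor of Cxcl12, rose by 2.26 ± 0.16, Cxcl16 by 2.04 ± 0.14 and Cxcl14 by 1.96 ± 0.10. All 3, picked for the size of their difference, had separate groups of arrays, as had 41.9% of all genes. Of the 10 leukocyte markers 1, Cd68, rose, by 0.50, and the list means were 4.88 to 5.06 on control and 4.83 to 4.91 on FSH/EGF arrays; the part of such cells in the chemokine values was not tested.

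Of 22 circadian clock genes 8 rose and 6 fell (median 0.03). That is 36.4% higher and 27.3% lower, against 33.7% and 17.7% of brighter genes. Bhlhe40, a repressor that feeds into the clock, read 4.96, 5.28, 4.98 and 5.32 on control and 8.47, 8.63, 8.92 and 8.94 with FSH/EGF (3.61 ± 0.14). The repressor Cry2 rose by 1.79 ± 0.13. The activator Tef fell by 1.21, as did Nr1d1 (-0.89), Nr1d2 (-0.93) and Dbp (-0.57), so that 4 of the 5 REV-ERB and PAR bZIP genes fell, a group picked out after the values were seen. Of 17 Kruppel-like factors 6 rose and 2 fell (35.3% and 11.8%, median 0.17), with the rises near the 33.7% of brighter genes. Klf10 rose by 1.73 ± 0.12, Klf7 by 1.10 and Klf13 by 1.00. Of 35 SOX and homeobox factors 6 rose and 10 fell (median -0.17). The shares were 17.1% and 28.6%, against 33.7% and 17.7% of brighter genes. Sox9 rose by 2.08 ± 0.19 and Sox11 by 1.95 ± 0.10, and Pbx3, a homeobox cofactor, fell by 1.45 ± 0.13.

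Of 39 lysine methyltransferases and demethylases 14 rose and 1 fell (median 0.28), but 8 rose and 5 fell after renewed quantile normalization, and the number that fell was 4 without control array 1, 2 without FSH/EGF array 4 and 0 without any other single array. In the deposited scaling 35.9% of this list rose, near the 33.7% of brighter genes, and 2.56% fell against 17.7%. The demethylases Kdm7a and Kdm6b rose by 1.33 and 1.13, and Kdm4c by 0.83. In mRNA decay and translational repression 14 of 37 rose and 2 fell (median 0.28; 9 rose after renewed quantile normalization, and 1 fell without control array 3 or FSH/EGF array 1, 2 or 3). In the deposited scaling 37.8% of this list rose and 5.41% fell, against 33.7% and 17.7% of brighter genes. The polyadenylation-linked Cpeb2 and Cpeb4 rose by 1.24 and 1.17, and Zc3h12a, an endonuclease of inflammatory mRNAs, by 1.04. Of 36 genes of the spliceosome core and SR proteins 10 rose and 1 fell, below the share of brighter genes that rose. The median of 0.20 was -0.01 after renewed quantile normalization, when 4 rose; 6 rose without control arrays 1 and 4 together, and 2 fell without control array 1. Sf3b4 rose by 0.71, Prpf3 by 0.70 and Sf3a3 by 0.64. Among nuclear pore, importins and exportins 20 of 40 rose and 4 fell (median 0.33), but 13 rose without FSH/EGF array 1 and 9 after renewed quantile normalization. The pore protein Nup210 fell by 1.51 ± 0.11, the importin Ipo11 by 1.28 ± 0.14, and Nup93 rose by 1.16.

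Of 40 genes of myosins, tropomyosins and calponins, a list that also holds the linkers of the cell cortex, 19 rose and 5 fell (median 0.24). Ezr, ezrin, read 7.91, 7.83, 7.84 and 8.05 on control and 11.08, 10.99, 11.07 and 11.29 on FSH/EGF arrays (3.20 ± 0.08). Its relative Msn, moesin, rose by 2.13 ± 0.12 and the actin-binding Cald1 by 2.08 ± 0.18. The 4 tropomyosin genes all rose (0.83 to 1.14), a group picked out after the values were seen that also passed under both other scalings, while the myosin Myo6 fell by 1.97. Among tetraspanins and syndecans 13 of 34 rose and 8 fell, with a median of -0.03 that was 0.05 with equal array medians, under which 4 fell. In the deposited scaling 38.2% of this list rose and 23.5% fell, against 33.7% and 17.7% of brighter genes. Cd9 rose by 2.95 ± 0.13 and the heparan sulfate carrier Sdc1 by 2.68 ± 0.10, and Tspan8 fell by 1.91 ± 0.21.

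Of 41 tubulins and microtubule binding proteins 16 rose and 4 fell (median 0.10; 8 fell after renewed quantile normalization). Tubb6 rose by 2.10 ± 0.13, the kinase Dclk1 by 1.80 and Map1a by 1.72. Genes of the cilium and intraflagellar transport showed the smallest movements of the structural lists: 7 of 37 rose and 6 fell (median -0.11), and 12 fell without control array 1, 11 after renewed quantile normalization and 14 with array weights. Of the 37, 25 were among the brighter genes. Rises made up 18.9%, against 33.7% of brighter genes and 21.9% of all genes. Falls made up 16.2%, against 17.7% and 14.9%. Dync2li1 fell by 0.71, Bbs2 by 0.60, and Ift122 rose by 0.63. No member changed 2-fold.

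Grouping all genes by the stem of their symbol, a division made after the values were seen, gave 191 stems with at least 12 measured genes. In 13 of them 50% or more of the members rose, and in 1, the elongation factor stem Eef, 6 of 12 fell and 1 rose. All 14 Psmd genes, of the regulatory cap of the proteasome, rose (0.25 to 1.24, median 0.86). Integrator subunits (Ints) rose in 11 of 15, Mediator subunits (Med) in 18 of 30, subunits of the TRAPP tethering complex (Trappc) in 10 of 15 with a median of 0.72, and syntaxins (Stx) in 9 of 14. The medians of these stems kept their sign under both other scalings. They were picked because 50% or more of their members rose. All 15 Ints and all 30 Med genes were among the brighter 60% of genes. Of those brighter genes 33.7% rose, and in the brightest of the 10 signal classes 43.8% rose.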

How the data were processed

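The authors deposited normalized log2 signals, which ran from 2.916 to 14.29. Per the submitters' processing notes, GCOS, RMA and Partek were used, with no version or role given. The genome build of the array annotation is not given in the sources used here. Of 35399 probe set rows, the platform annotation gave 1 symbol for 21789 and several for 1621 and did not list 11989; 999 genes had over 1 probe set. The precision is limited by the number of arrays, since a signal has no read depth. The model was limma 3.58.1 in R 4.3.3, with 1 mean per group over all 12 arrays and moderated variances. P-values were adjusted by Benjamini-Hochberg over all 35399 rows, with a threshold of 0.05. The GDF9 arrays entered for the spread. Simulated data held known changes in 200 rows per size. Of changes of 0.5 log2 57.5% were called, of 2-fold changes 92.5% and of 4-fold changes 100%, and 4.4% of calls were false. The simulation changed far fewer rows than the 10269 called in the data and used independent noise without shifts between arrays. Its rates therefore do not give the power or the false share of the calls reported here.

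Named genes are the 24 largest rises and 24 largest falls with proper symbols, past the threshold and without overlap between groups, and up to 3 members of each functional list by size of difference. From each marker list the member with the largest difference was named, and Padi6. Genes outside this rule are said to be named after their values were seen. The 33 functional lists (1177 genes listed, 1103 measured), the members and the rules were chosen with earlier results of these data known. The result of 1 of the 33 lists is not reported here. Alternatives for scaling were equal array medians and a renewed quantile normalization. Others were the 8 arrays alone, a variance trend, robust moderation, weights for arrays, a filter on the 40% dimmest rows, the replicate block, averaging of probe sets per gene, adjustment over 1 probe set per symbol, each array left out in turn, and control arrays 1 and 4 left out together. Promoter windows came from RefSeq (GRCm38.p6) and matched 15614 of the 19938 genes by symbol.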

Additional observations from a re-analysis of the deposited data

Results flagged for a closer look

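In 16 of 304 groups of 4 arrays examined for the named genes (5.26%), 1 array lay further from the other 3 than Dixon's critical value for the gap allows; chance gives about 1 in 20. Control array 1 was the array in 5 of them and control array 4 in 4.

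Control array 1 read 8.158 for Anxa2 (others 8.393 to 8.432), 7.389 for Nfkbib (7.024 to 7.072), 5.684 for Chsy3 (5.294 to 5.358), 9.078 for Prps2 (9.469 to 9.532) and 6.549 for Bbs2 (6.974 to 7.006). This array had the lowest array weight, 0.269. Control array 4 read 7.684 for Alg2 (7.534 to 7.544), 5.662 for Steap1 (5.365 to 5.405), 6.799 for the oocyte gene Bmp15 (4.626 to 4.928) and 7.051 for the oocyte gene Padi6 (4.457 to 4.515), with the highest mean of the oocyte markers, 5.88. Control array 3 read 6.524 for Pgm2 (6.850 to 6.900).

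Among the FSH/EGF arrays, array 1 read 5.323 for Fhl1 (5.497 to 5.516) and 8.019 for Slc30a9 (7.812 to 7.827). Array 3 read 6.773 for Eef2k (6.448 to 6.500) and 5.607 for Padi6 (4.489 to 4.577). Array 4 read 10.25 for Aldh1a3 (10.03 to 10.05) and 9.342 for Cry2 (8.698 to 8.720). None of these readings brought the groups into overlap, except for Bmp15 and Padi6, whose groups overlapped.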

How the results depend on the processing

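Of the 152 named genes 150 passed the threshold. Under 19 alternatives they gave 2885 values, of which 2883 kept their side of the threshold and, where called, their direction; 0 were reversed and 2 calls were lost, both for Slc4a1: -0.25 without control array 3 (limma adjusted p = 0.0614) and -0.30 without FSH/EGF array 1 (adjusted p = 0.0533). Without the 40% dimmest rows 3 named genes were not tested. Most named genes were chosen for large differences already past the threshold, so their stability follows largely from that choice. Over all genes, 5550 of the 7334 calls were kept in the same direction under renewed quantile normalization. The number kept was 6189 with equal array medians, 5931 without FSH/EGF array 1 and 7311 with robust moderation. With equal array medians 1832 genes fell, against 2977, and 4826 rose, a split of 72.5% higher against 59.4%. Array weights gave 8899 calls and renewed quantile normalization 6353. Leaving out 1 array gave 5980 (without FSH/EGF array 1) to 7349 (without control array 4) calls against 7334. Changes of at least 2-fold numbered 1338 to 1584 over all alternatives, against 1469.

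Among 80 list counts, 32 moved by over 1.5 times under some alternative and 20 when 1 array was left out. The sign of the median turned in 4 functional lists under renewed quantile normalization and in 3 with equal array medians, as given beside each. Same-numbered control and FSH/EGF arrays deviated together with correlations of -0.14, 0.18, 0.11 and -0.09, so the replicate numbers were not taken to pair them. The fit with the replicate block gave 6834 calls, 4176 higher and 2658 lower. Small differences near the threshold rest on 4 arrays per group, and those between dim probe sets on signals whose height over background was not measured.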
